A study of Mus musculus with 29 samples.

Results

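The comparison set wild-type endothelial niche cells (EC WT, replicates 13, 14 and 15) against wild-type mesenchymal niche cells (MSC WT, replicates 1, 2 and 3). These 6 libraries were chosen by their labels out of 29 in the series, and all genes with Ensembl mouse identifiers in the niche table were read. The series concerns blood stem cells regenerating in a wild-type (WT) niche or in one with reduced Wnt5a, and the populations of the niche itself. Of its libraries, 18 came from the niche: EC, MSC and osteoblastic cells (OBC), each with 3 WT and 3 Wnt5a libraries. All groups used here carry the strain label 129Ly5.1. The label Wnt5a stands for a niche haploinsufficient for that gene, and EC, MSC and OBC cells were isolated by FACS. The markers used in the sort, the age of the animals, and whether replicates came from separate animals or from pools are not stated in the labels. The p-values below therefore measure only the spread between these libraries, which may be technical.

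Endothelial cells line the vessels of the marrow and bone. They hold together through VE-cadherin and PECAM1, sense VEGF through the KDR and FLT1 receptors, and move fatty acids and water across the capillary wall. Mesenchymal stromal cells lie around the vessels and along the bone, and are known for laying down collagen, proteoglycans and other matrix. Both populations are textbook sources of CXCL12 and stem cell factor, which hold and feed blood stem cells.

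The EC WT libraries held 83254, 95216 and 117989 unique molecular identifiers (UMIs, 1 per captured mRNA molecule) and the MSC WT libraries 50421, 37352 and 45573. Of 18194 genes in the table, 14155 had at least 1 UMI in the 6 libraries. Levels are given in CPM, the UMI count of a gene relative to the scaled library total. On that scale 3 UMIs, taken as the floor of detection, correspond to 19.4 to 31.2 CPM in EC WT and 50.8 to 66.1 in MSC WT. EC WT replicate 14 stood apart, with 24.3% of its UMIs from haemoglobin genes (exact binomial 95% interval 24 to 24.6) against 1.9% and 2.57% in the other EC libraries and 3.87% to 6.44% in MSC WT. Such intervals cover counting error only.

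Against their own markers, the EC WT libraries carried endothelial transcripts and the MSC WT libraries carried both endothelial and fibroblast-like ones. The 12 endothelial markers summed to 8870 to 11400 CPM in EC WT and to 10500 to 11700 in MSC WT, and every one of them had a UMI in every library of both groups. In the OBC WT libraries the same 12 genes summed to 2980 to 4630. The 12 fibroblast-like mesenchymal markers summed to 156 to 317 CPM in EC WT and 3480 to 4100 in MSC WT. The libraries labelled MSC thus held more of these 12 fibroblast-like markers than the EC libraries, but also as much summed endothelial transcript as the EC libraries, and they are called MSC WT here by their label. In bulk RNA, fewer cells of a type and less RNA per cell cannot be told apart.

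**Figure D1:**
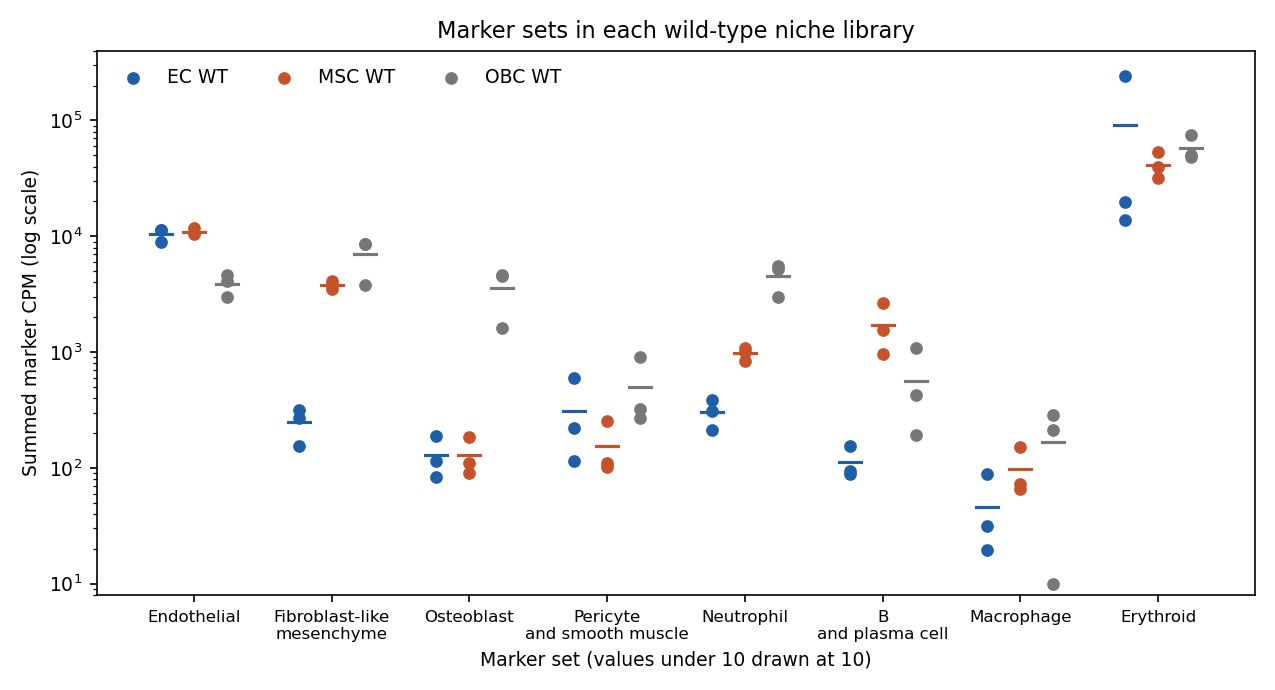
Summed level of 8 marker sets (CPM, log scale) in the 3 EC WT, 3 MSC WT and 3 OBC WT libraries, with a short line at each group's mean. The EC WT and MSC WT points lie at the same height for the endothelial set, between 8870 and 11700, and apart for the fibroblast-like, neutrophil and B and plasma cell sets.

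Several single markers that textbooks use for these populations were too low to separate them. Pdgfra, a receptor of mesenchymal stroma, had 0, 0 and 1 UMIs in EC WT and 3, 3 and 1 in MSC WT. Pdgfrb, the receptor of pericytes and stroma, had 3, 0 and 5 against 4, 1 and 0. Alcam, a surface protein of bone-forming cells, had 1 UMI in EC WT replicate 14 and none in the other 5 libraries. None of the 3 reached the test, and their counts overlapped between the groups or sat at the floor. The 7 osteoblast markers summed to 83.2 to 188 CPM in EC WT and 90.9 to 186 in MSC WT, against 1620 to 4600 in OBC WT, with Sp7 and Runx2 at 0 in all 6 EC WT and MSC WT libraries.

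Of the blood cell marker sets, those of neutrophils and of B and plasma cells differed in level between the groups. The 5 neutrophil markers summed to 211 to 385 CPM in EC WT and 838 to 1090 in MSC WT. The 6 B and plasma cell markers summed to 87.8 to 155 against 970 to 2660. Igha gave 71, 32 and 64 of the 157, 44 and 86 UMIs behind that sum in MSC WT. The macrophage (19.4 to 87.8 against 66.1 to 153 CPM), platelet (0 to 26.3 against 0 to 375) and erythroid (13900 to 241000 against 32000 to 53500) sets overlapped. The pan-leukocyte gene Ptprc (CD45) had 2 UMIs in 1 library of each group and 0 in the others, and the 3 pan-leukocyte markers together stayed between 0 and 31.2 CPM in EC WT and between 18.2 and 119 in MSC WT. The part of these cells in the differences below was not tested.

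Of 1275 genes with enough UMIs to be tested, 23 passed the test at an adjusted p under 0.05 (edgeR's quasi-likelihood test, Benjamini-Hochberg over all genes tested). All 23 were higher in MSC WT, which is 1.8% of the genes tested, and the percentage called as higher in EC WT was 0. Only Gsn among the 23 had enough UMIs in every EC WT library to be kept by that group. The others were kept only through their MSC WT counts, so a sufficient MSC WT level was a condition of their being tested. Of the genes with an estimate toward EC WT, 28 had an unadjusted p under 0.05, against 48 toward MSC WT. DESeq2 and limma voom, run on the same genes, likewise called 0 genes higher in EC WT, and each called 22 higher in MSC WT. The median difference over all genes tested was 0.01 on the log2 scale, whereas among the 23 genes it was -3.45, with sizes from 1.68 to 5. In each of the 23, every MSC WT library lay above every EC WT library, which held for 8.24% of all genes tested, and the opposite order held for 5.1%. When all libraries were thinned to the smallest total, 10 of the 23 passed among 633 genes tested. Over 16 alternative analyses, 16 of the 23 passed in every one that tested them, and the other 7, among them Serinc1, S100a8, Fstl1, Fbn1, Ecm1 and Timp2, missed the threshold in at least 1.

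**Figure D2:**
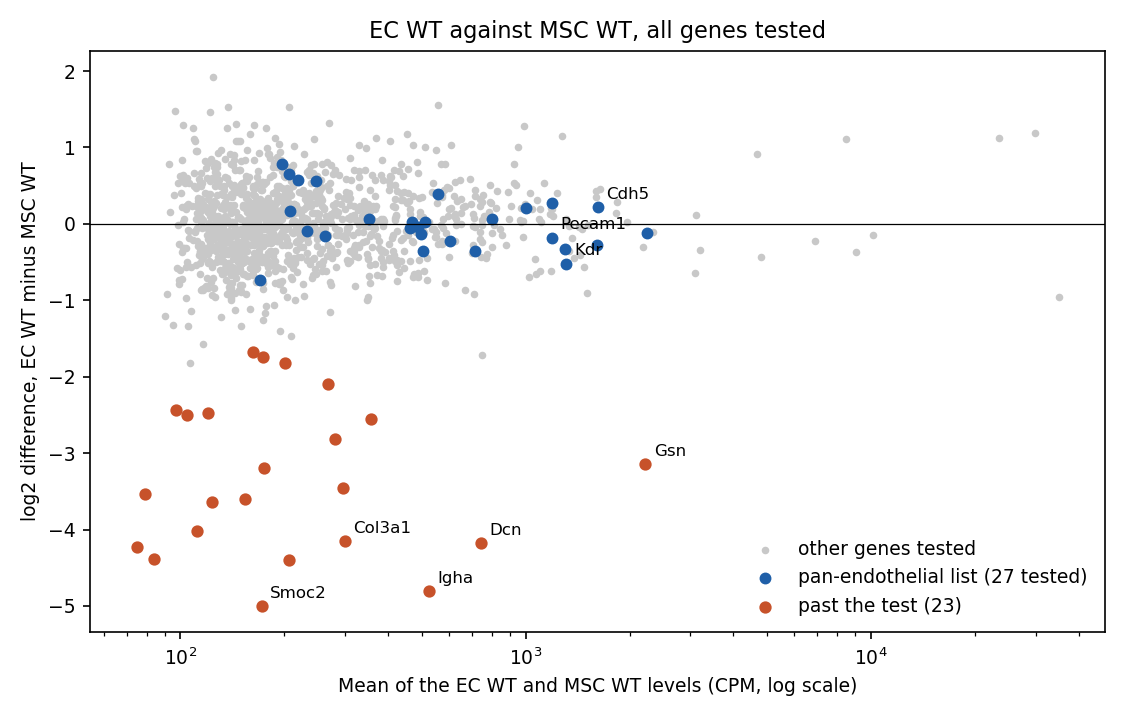
Difference between EC WT and MSC WT (log2) against the mean level of the 2 groups (CPM, log scale) for all 1275 genes tested. The 23 genes past the test lie between -5 and -1.68, and the 27 pan-endothelial genes lie around 0, between -0.74 and 0.79.

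Genes of matrix and fibroblasts made up 17 of the 23. The lists of fibrillar collagens and their processing, matrix glycoproteins and proteoglycans, and fibroblast-like mesenchyme held 97 genes together. The filter kept 37 of them, and 17 of these were higher in MSC WT. Members kept through their MSC level had to differ, so the count is a description and not a test of the lists. The other 59 genes of the lists in the table were too low to test, and together they summed to 509, 624 and 971 CPM in EC WT and to 2690 to 3510 in MSC WT.

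Type I and type III collagen, fibril-forming collagens of loose and bony connective tissue, were the collagens of the list that passed the test. Of its other collagens only Col15a1 was tested, and the rest were too low to test. Col3a1, Col1a2 and Col1a1 were kept by the filter only through their MSC counts. Col3a1 (ENSMUSG00000026043, GRCm38 chr1:45311538-45349706, plus strand) had 3, 3 and 5 UMIs in EC WT and 44, 14 and 36 in MSC WT. That is 30 ± 3.2 CPM against 570 ± 231 (SD, n = 3 each), a fitted fold of 17.8 (log2 difference -4.15 ± 0.49 SE, edgeR adjusted p = 1.66e-10). The lowest MSC library, replicate 2, was still about an order of magnitude above the highest EC library.

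Col1a2 (ENSMUSG00000029661, chr6:4504814-4541544, plus strand) had 8, 4 and 5 UMIs against 36, 28 and 22, an 11-fold difference (-3.45 ± 0.53, edgeR adjusted p = 1.18e-06). Its partner chain Col1a1 (chr11:94936224-94953042, plus strand) had 2, 4 and 6 against 22, 13 and 16, a 9.1-fold difference (-3.19 ± 0.55, edgeR adjusted p = 1.1e-05). For both chains the groups were separate, and OBC WT had higher values of both, where Col1a2 averaged 6360 ± 4160 and Col1a1 5340 ± 2730 CPM against 542 ± 123 and 317 ± 48.6 in MSC WT. Col3a1 had only 2, 2 and 4 UMIs in the shallow OBC WT libraries, too few to place it against MSC WT. OBC and MSC were not tested against each other here.

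The other 6 tested members of the collagen list did not pass. Sparc, a collagen-binding protein also made by endothelium, had 279, 114 and 290 UMIs against 86, 58 and 74 (0.43, 95% interval -0.35 to 1.21). Pcolce, which speeds the trimming of procollagen, had 13, 5 and 20 against 14, 5 and 17 (-1.12, interval -2.08 to -0.15, adjusted p = 0.575 by edgeR). The median of the 9 tested members was -0.54. Summed over the whole list, levels were 2350 to 3850 CPM in EC WT and 4500 to 5300 in MSC WT.

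The start regions of both collagen genes that RefSeq (GRCm38.p6) lists are shown because both genes are higher in MSC WT than in EC WT, and no motif searched was found in both. Each runs from 250 bases before to 50 bases after the RefSeq start, on the plus strand, at chr1:45311288-45311587 for Col3a1 and chr6:4505368-4505667 for Col1a2. Capitals mark TATAAA in Col3a1, 117 bases before the start, and GGGCGG in Col1a2, 205 and 188 bases before it.
Col3a1: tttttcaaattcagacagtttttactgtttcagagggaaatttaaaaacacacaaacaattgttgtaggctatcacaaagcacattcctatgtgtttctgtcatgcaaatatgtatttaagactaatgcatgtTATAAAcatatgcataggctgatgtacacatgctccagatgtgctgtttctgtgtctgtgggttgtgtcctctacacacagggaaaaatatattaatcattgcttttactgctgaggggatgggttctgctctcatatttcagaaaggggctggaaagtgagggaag
Col1a2: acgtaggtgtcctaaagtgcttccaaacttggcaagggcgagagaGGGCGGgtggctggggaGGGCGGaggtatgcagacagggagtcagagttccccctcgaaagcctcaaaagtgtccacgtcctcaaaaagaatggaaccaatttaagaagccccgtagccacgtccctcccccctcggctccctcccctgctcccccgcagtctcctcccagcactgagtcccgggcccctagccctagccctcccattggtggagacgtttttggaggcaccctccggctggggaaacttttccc
Promoter entries were found for 13 of the 23 genes. A gene was counted if any of its entries matched. TATAAA, the letters of a TATA box, was present on either strand in 5 of the 13 (38.5%), which were Col3a1, Igfbp6, C3, Ecm1 and S100a8. It was present in 15.7% of all 27025 genes with an entry and in 13.3% of the 901 tested genes with an entry. GGGCGG, a GC box, was present in 6 of the 13 (46.2%), against 38.2% of all genes with an entry and 70.5% of the tested ones. The ETS letters CCGGAAG were in 0 of the 13 and in 0 of 17 tested pan-endothelial genes with an entry, against 9.93% of all genes with an entry and 18.8% of the tested ones. These are matches of letters and were not tested.

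Among glycoproteins and proteoglycans, 7 of 10 tested genes were higher in MSC WT, against 1.8% of all genes tested. The estimates of all 10, out of 29 members, were negative (median -2.52). However, all 7 called genes were kept by the filter only through their MSC counts. The 7 of 10 is therefore a description and not a test of the list. Decorin (Dcn), a small proteoglycan that coats collagen fibrils, had 11, 4 and 13 UMIs in EC WT and 94, 61 and 71 in MSC WT. It averaged 74.1 ± 28.8 against 1410 ± 161 CPM, an 18.1-fold difference (-4.18 ± 0.55, edgeR adjusted p = 9.61e-07). Every MSC library lay far above the EC libraries, and OBC WT averaged 779 ± 551. Smoc2, a calcium-binding matricellular protein, had the largest estimate of the 1275 genes tested, with 0, 1 and 2 UMIs against 20, 13 and 21 (-5.0 ± 0.68, edgeR adjusted p = 1.73e-08). Because only 3 UMIs stand on the EC side, the ratio of summed levels was 41.2 with a counting interval of 13.4 to 206.

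Fibronectin (Fn1), the adhesive protein bound by integrins, was more evenly present, with 13, 6 and 19 UMIs against 31, 33 and 32 (5.86-fold, -2.55 ± 0.45, edgeR adjusted p = 1.27e-05). Tenascin-X (Tnxb), a matrix protein of loose connective tissue, had 2, 0 and 0 against 12, 7 and 7 (edgeR adjusted p = 3.53e-05), a ratio of 29.7 with a counting interval of 7.45 to 259. Lumican (Lum), a keratan sulfate proteoglycan, had 1, 0 and 3 against 10, 6 and 8 (edgeR adjusted p = 0.00093), a ratio of 13.7 with a counting interval of 4.72 to 54.4. In none of these genes did the groups overlap. Fibrillin-1 (Fbn1), the backbone of microfibrils, with 1, 4 and 6 against 12, 6 and 11 (-2.5 ± 0.59), and Ecm1, with 4, 0 and 7 against 11, 7 and 9 (-2.43 ± 0.62), passed with edgeR adjusted p = 0.00351 and 0.00876.

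The 3 members that did not pass are proteins that vessels also carry. Ltbp4, a latent TGF-beta binding protein, stood at 809 ± 136 CPM in EC WT and 814 ± 150 in MSC WT (-0.01, interval -0.74 to 0.72). Fbln2 stood at 353 ± 124 against 534 ± 102 (-0.58, interval -1.35 to 0.19), and Nid1, a basement membrane linker, at 145 ± 37.3 against 284 ± 131 (-0.99, interval -1.88 to -0.1, edgeR adjusted p = 0.613). Of the 9 tested basement membrane genes none was called, where 1.8% of all genes tested were. Col4a1, a chain of the collagen of basement membranes, gave 0.29 (interval -0.47 to 1.05).

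Of 18 tested members of the fibroblast-like list, 7 were higher in MSC WT, against 1.8% of all genes tested, with 4 positive and 14 negative estimates (median -0.67). All of the 7 except Gsn, among them Clec3b, Pi16, Igfbp6 and Mmp2, were kept by the filter only through their MSC counts and had to differ. The 7 of 18 is therefore a description and not a test of the list. Summed over all measured members, the list stood at 7310 to 9230 CPM in EC WT and 15600 to 16500 in MSC WT. Clec3b (tetranectin), a plasminogen-binding protein, had 2, 1 and 3 UMIs in EC WT and 19, 22 and 21 in MSC WT (-4.4 ± 0.59, edgeR adjusted p = 6.17e-09). The ratio of summed levels was 23.6 with a counting interval of 10.3 to 66.9. Pi16, a surface marker of adventitial fibroblasts, had 2, 0 and 2 against 11, 9 and 14 (-4.02 ± 0.68, edgeR adjusted p = 4.45e-06), a ratio of summed levels of 19.4 with a counting interval of 6.93 to 75.4. Both were tight within MSC WT. Pi16 was at 0 in all 3 OBC WT libraries, which were shallower, and Clec3b averaged 84 ± 75 CPM there.

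Members of the insulin-like growth factor system split. Igfbp6, a binding protein with a preference for IGF2, had 3, 0 and 5 UMIs against 21, 14 and 11 (12.1-fold, -3.6 ± 0.57, edgeR adjusted p = 1.05e-06). Igfbp5, which binds IGFs in bone and matrix, had 5, 4 and 17 against 33, 18 and 29 (7.03-fold, -2.81 ± 0.46, edgeR adjusted p = 1.69e-06). Both were higher in MSC WT without overlap once scaled to the library total. Igfbp7, a binding protein abundant in vessels, had 263, 162 and 270 against 116, 104 and 53 (0.14, interval -0.59 to 0.87), and Igfbp3 and Igfbp4 gave -0.03 and 0.23. Thus 2 of the 5 tested members were called, against 1.8% of all genes tested. Both were kept by the filter only through their MSC counts. The 2 of 5 is therefore a description and not a test of the list.

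Mmp2 and Timp2, which act in matrix remodelling, were higher in MSC WT. Mmp2, a gelatinase, had 0, 0 and 2 UMIs in EC WT and 9, 7 and 7 in MSC WT (edgeR adjusted p = 0.000376), a ratio of 26.3 with a counting interval of 6.5 to 230. Timp2, which inhibits and also helps activate that enzyme, had 5, 1 and 7 against 10, 9 and 14 (5.59-fold, -2.48 ± 0.55, edgeR adjusted p = 0.0012). Timp3, an inhibitor held in the matrix, was abundant on both sides, at 1170 ± 244 and 1590 ± 602 CPM (-0.44, interval -1.16 to 0.28). Fstl1, a secreted glycoprotein that binds BMPs, was the 1 gene called of 7 tested in the TGF-beta and BMP list, with 10, 2 and 22 UMIs against 19, 13 and 19 (3.52-fold, -1.82 ± 0.45, edgeR adjusted p = 0.00722). Of all genes tested 1.8% were called. Fstl1 was kept by the filter only through its MSC counts, so the 1 of 7 is a description. It missed the threshold in 6 of the 16 alternatives that tested it.

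**Figure D3:**
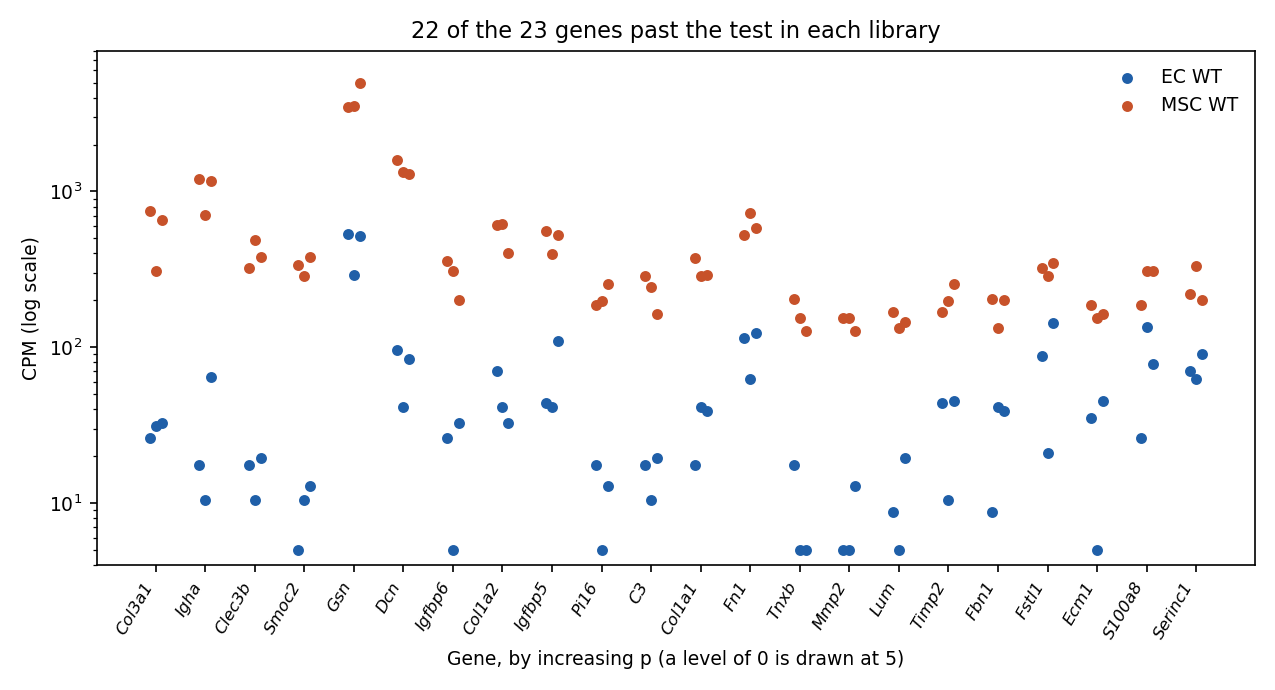
Level of 22 of the 23 genes past the test (CPM, log scale) in each of the 3 EC WT and 3 MSC WT libraries, ordered by p. In every gene drawn the 3 MSC WT points lie above the 3 EC WT points, and Gsn is the highest in both groups.

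Gelsolin (Gsn), which cuts and caps actin filaments and also has a secreted plasma form, was the most abundant of the 23. It had 61, 28 and 80 UMIs in EC WT and 205, 160 and 275 in MSC WT, or 448 ± 136 against 4000 ± 867 CPM (8.84-fold, -3.14 ± 0.45, edgeR adjusted p = 3.69e-08). With counts this high, the exact interval of the ratio of summed levels was narrow, 7.3 to 10.3. Gsn was 1 of 38 tested actin genes, and none of the other 37 was called, where 1.8% of all genes tested were. The list's median was 0.08, with 20 positive and 18 negative estimates. Actb gave -0.34 (interval -1.2 to 0.51), thymosin beta 4 (Tmsb4x), which holds actin monomers, 0.12 (interval -0.65 to 0.89), and cofilin (Cfl1), which severs filaments, 0.51 (interval -0.26 to 1.27).

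Of the 23 genes, 6 were in none of the 3 matrix and fibroblast lists, among them Igha, C3, Fstl1, S100a8 and Serinc1. Igha (ENSMUSG00000095079, chr12:113254830-113260236, minus strand), the constant region of immunoglobulin A made by plasma cells, had 2, 1 and 10 UMIs in EC WT and 71, 32 and 64 in MSC WT (28.1-fold, -4.81 ± 0.55, edgeR adjusted p = 6.17e-09). Igha was kept by the filter only through its MSC counts. Other immunoglobulin genes did not pass the filter on low counts. Igkc, the kappa light chain, had 4, 1 and 6 against 39, 4 and 16. Jchain, which joins IgA and IgM units, had 2, 2 and 6 against 25, 5 and 5. MSC WT replicate 1 carried the most of both. Under alternatives whose filter kept them, Igkc was called higher in MSC WT in 6 (with no filter -3.24, edgeR adjusted p = 5.51e-05) and Jchain in 3 (-2.64, edgeR adjusted p = 0.0158 with no filter).

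All immunoglobulin genes together took 0.00911% ± 0.00633 of the UMIs in EC WT and 0.202% ± 0.0717 in MSC WT. The groups did not overlap (exact permutation over libraries, two-sided, p = 0.1, which is the lowest value this design can reach, and 0.4 after adjustment over 8 transcript classes). S100a8, a calcium-binding protein packed in neutrophils, had 3, 13 and 12 UMIs against 11, 14 and 17 (3.34-fold, -1.74 ± 0.47, edgeR adjusted p = 0.0203). Its partner S100a9 had 11, 14 and 14 against 20, 13 and 16 and did not pass (-1.47, adjusted p = 0.0927 by edgeR).

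Complement C3, the central protein of the complement cascade, which fibroblasts also secrete, had 2, 1 and 3 UMIs against 17, 11 and 9 (-3.64 ± 0.62, edgeR adjusted p = 5.12e-06), a ratio of 14.1 with a counting interval of 5.9 to 40.9. It was kept by the filter only through its MSC counts. Of the 23 genes, 12 overlap some other annotated gene. The strand setting of the counting is not given in the sources used here. Serinc1, a membrane protein, was nearest to the threshold, with 8, 6 and 14 against 13, 15 and 11 (-1.68 ± 0.49, edgeR adjusted p = 0.0473), and it missed the threshold in all 15 alternatives that tested it.

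Genes of endothelial identity did not separate the groups at this depth. VE-cadherin (Cdh5), the junction protein that defines endothelium, had 197, 139 and 315 UMIs in EC WT and 78, 74 and 85 in MSC WT. Scaled to the libraries this was 1740 ± 296 against 1500 ± 160 CPM, and the difference was 0.22 with an interval of -0.54 to 0.97. Pecam1, a junction protein of endothelium and platelets, had 152, 88 and 170 UMIs against 77, 69 and 54 (-0.18, interval -0.89 to 0.53). For both genes the scaled levels of the groups overlapped.

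Kdr, the main VEGF receptor, had 123, 66 and 225 UMIs against 90, 73 and 83, or 1070 ± 385 against 1550 ± 53.6 CPM (-0.52, interval -1.25 to 0.21). Flt1, the decoy VEGF receptor, gave -0.27 (interval -0.99 to 0.45), and Egfl7, a matrix protein secreted by endothelium, -0.12 (interval -0.88 to 0.65). Ly6a, which encodes the Sca-1 antigen of arterial endothelium and mesenchymal progenitors alike, had 151, 95 and 156 against 67, 58 and 48, or 1110 ± 189 against 1100 ± 206 CPM (0.02, interval -0.67 to 0.71). These libraries overlapped in each gene except Kdr, where the 3 MSC WT libraries lay just above the highest EC library.

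Emcn, a sialomucin of veins, capillaries and marrow sinusoids, was uneven within MSC WT, with 38, 17 and 44 UMIs against 21, 4 and 4 (0.58, interval -0.38 to 1.54). Without MSC WT replicate 1, which held most of it, the estimate was 1.75 and the edgeR adjusted p = 0.252. Mcam, an adhesion molecule of endothelium and pericytes, had the highest estimate of the endothelial list, at 248 ± 40.8 against 147 ± 102 CPM (0.79, interval -0.16 to 1.74). Nos3, endothelial nitric oxide synthase, had the lowest, at 124 ± 48.1 against 217 ± 72.1 (-0.74, interval -1.67 to 0.2).

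Over the whole pan-endothelial list, 32 genes were in the table, 27 were tested and 0 were called. Of all genes tested 1.8% were called, so 0 of 27 lies near that share and is not a result about the list. At an unadjusted p under 0.05 by edgeR the list had 0 genes too, against 76 of all 1275 tested. Their estimates were 13 positive and 14 negative, with a median of -0.04. The 95% interval lay within 2-fold in either direction for 16 of the 27 genes (59.3%, against 19.3% of all genes tested) and within 4-fold for 27 of 27 (100%, against 92.9%). A p that misses the threshold does not show that 2 levels are equal, and differences smaller than these intervals could not be detected. All list members together summed to 16200 to 21400 CPM in EC WT, 18600 to 20500 in MSC WT and 5240 to 7550 in OBC WT.

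**Figure D4:**
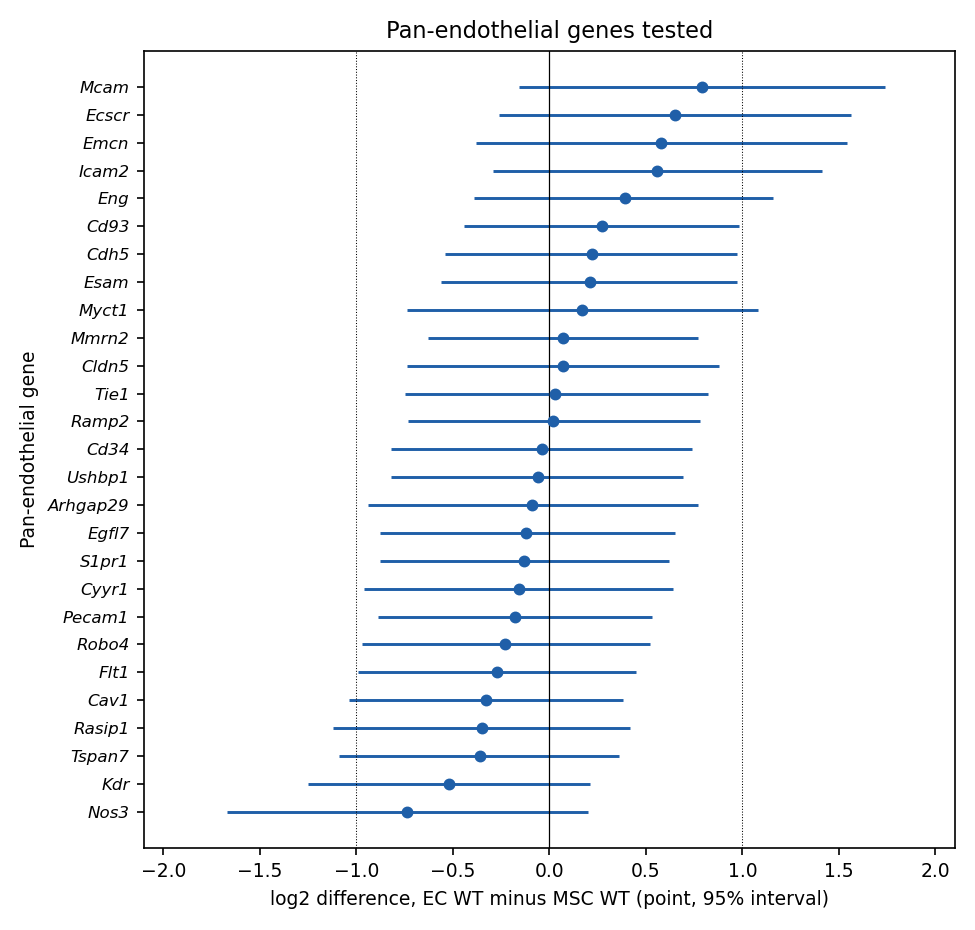
Difference between EC WT and MSC WT (log2, point with 95% interval) for the 27 pan-endothelial genes tested, with dotted lines at a 2-fold difference either way. All intervals include 0, and the points run from -0.74 for Nos3 to 0.79 for Mcam.

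Genes of capillary lipid and water transport were among the most abundant in both groups. Fabp4, a fatty acid carrier of capillary endothelium and fat cells, had 1292, 613 and 1734 UMIs in EC WT and 779, 403 and 540 in MSC WT, or 9650 ± 2830 against 10600 ± 2270 CPM (-0.14, interval -1.08 to 0.8). Aqp1, a water channel, stood at 6350 ± 675 against 7440 ± 1430 (-0.23, interval -1.09 to 0.63). Gpihbp1, which carries lipoprotein lipase to the capillary lumen, stood at 2250 ± 467 against 2420 ± 290 (-0.1, interval -0.83 to 0.62). The groups overlapped in all 3.

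The fatty acid transporter Cd36 gave -0.3 (interval -1.06 to 0.46) and the lipase Lpl itself -0.65 (interval -1.38 to 0.08). Of 12 tested genes of the list 0 were called, against 1.8% of all genes tested. Their estimates were 3 positive and 9 negative, with a median of -0.16. Their sums were 21700 to 30500 CPM in EC WT and 25800 to 33000 in MSC WT.

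No endothelial subtype list had a called gene. Of all genes tested 1.8% were called, so 0 calls in lists this short lies near that share. Of 12 tested transcription factors of endothelium, 6 had positive and 6 negative estimates (median 0.01). The ETS factor Fli1 gave 0.05 (interval -0.75 to 0.85), Sox17, an arterial factor, 0.17 (interval -0.97 to 1.31), and Tcf15, a factor of capillary endothelium, 0.05 (interval -0.78 to 0.88). Among 7 arterial genes, the Notch ligand Dll4 had 30, 17 and 18 UMIs against 10, 4 and 4 (0.7, interval -0.36 to 1.75). Only 3 sinusoidal genes were tested, and Stab1, a scavenger receptor of sinusoids, had 19, 13 and 39 against 6, 5 and 9 (0.58, interval -0.4 to 1.55).

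Factors that hold blood stem cells in the niche were present in both populations. Cxcl12 had 74, 76 and 140 UMIs in EC WT and 95, 50 and 60 in MSC WT, or 782 ± 128 against 1270 ± 296 CPM. All 3 MSC libraries lay above the EC libraries, but the difference did not pass the test (-0.7, interval -1.51 to 0.12, edgeR adjusted p = 0.783). Kitl, stem cell factor, had 42, 29 and 44 against 26, 27 and 18 (-0.5, interval -1.28 to 0.28). None of the 5 tested genes of the reticular stromal list was called, where 1.8% of all genes tested were.

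The largest estimates toward EC WT among the listed genes belonged to inducible heat shock proteins, and they did not pass. Hspa1b had 18, 24 and 29 UMIs in EC WT and 2, 2 and 4 in MSC WT, or 198 ± 46.8 against 50.2 ± 20.1 CPM (1.92 ± 0.61, edgeR adjusted p = 0.11). Its near-identical neighbour Hspa1a, whose reads can be confused with it, had 18, 41 and 87 against 4, 9 and 11 (1.32 ± 0.46, edgeR adjusted p = 0.22). For Hspa1b the 3 EC libraries lay above the MSC libraries, and for Hspa1a the groups overlapped. Without EC WT replicate 13, Hspa1a passed with 1.69 and an edgeR adjusted p = 0.0405. The list's 8 tested members had 4 positive and 4 negative estimates, with a median of 0.06.

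The same contrast was read in the 3 EC and 3 MSC libraries from Wnt5a niches, which enter no WT group mean. They do share the fit's estimate of spread and the WT-based gene filter with the WT comparison, which called 19 genes when fitted on its own 6 libraries alone. There 20 genes were higher in MSC (1.57% of the genes tested) and 1 was higher in EC (0.0784%). All 23 genes called in WT had an estimate toward MSC there too, 19 were called in both, and in 21 all 3 MSC Wnt5a libraries lay above all 3 EC Wnt5a libraries, the exceptions being Mmp2 and Serinc1. The share of all genes tested with that order in the Wnt5a libraries was not worked out, so the 21 is only a description. Decorin (Dcn) gave -3.27 ± 0.54 (edgeR adjusted p = 0.000122), Col3a1 -2.71 ± 0.52 (edgeR adjusted p = 0.000158), and Igha -3.49 ± 0.53. The count in the Wnt5a libraries fell from 21 to 10 without EC Wnt5a replicate 17, the deepest of its group, and to 13 without MSC Wnt5a replicate 5.

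Whether the difference between populations depended on genotype was tested as an interaction. The percentage of genes called was 0, with 79 of 1275 at an unadjusted p under 0.05 by edgeR, and DESeq2 and limma voom called 0 as well, with 76 and 75. Of the 23 genes, Mmp2 alone had an unadjusted interaction p under 0.05. It stood at 145 ± 15.1 CPM in MSC WT and had 1 UMI in each MSC Wnt5a library, below the floor of 3, and its difference in the Wnt5a libraries was -0.51 ± 1.27. By edgeR the interaction had an adjusted p = 0.755 (0.0234 unadjusted). The gene called higher in EC from Wnt5a niches was Hspa1a, with 2.08 ± 0.5 (edgeR adjusted p = 0.00488) against 1.32 ± 0.46 in WT.

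**Figure D5:**
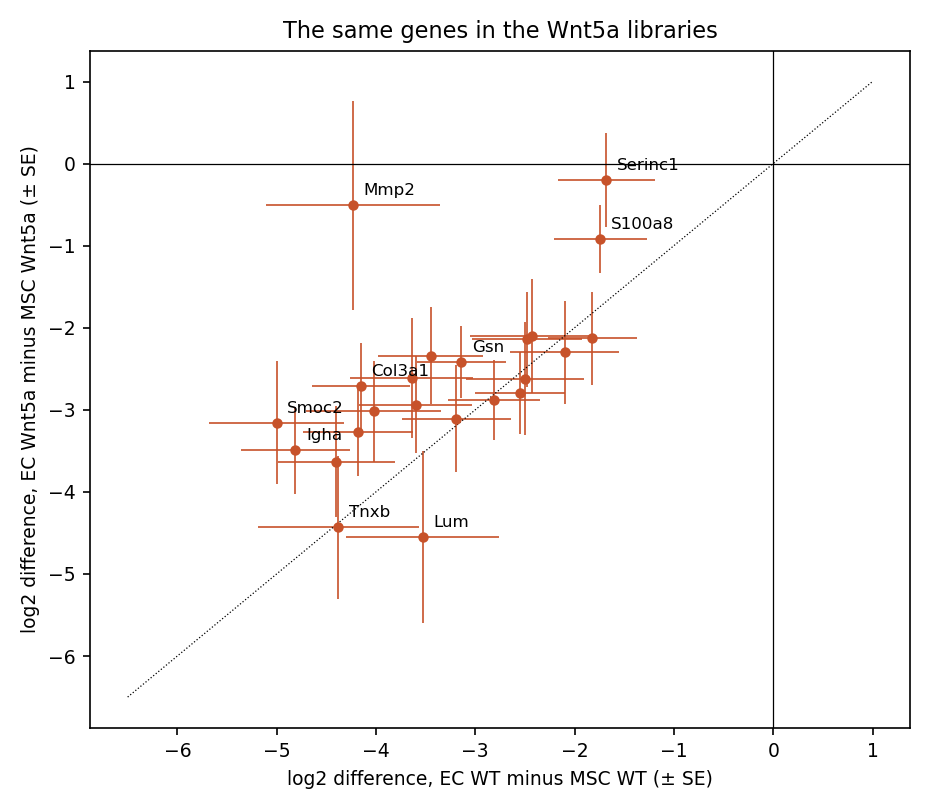
Difference between EC and MSC (log2, ± SE) of the 23 genes in the WT libraries (horizontal) and in the Wnt5a libraries (vertical), with a dotted line where both are equal. All points lie below 0 on both axes, with Mmp2 (-4.23 against -0.51) farthest from the line.

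Endothelial genes stood differently in the 2 genotypes as values, although no member was called in either. Of the 27 pan-endothelial genes, 25 had positive estimates in the Wnt5a libraries (median 0.6, against 0.06 for all genes) where 13 did in WT. The 12 endothelial markers summed to 10200 to 14000 CPM in EC Wnt5a and to 7050 to 8350 in MSC Wnt5a, so that these groups did not overlap, while the fibroblast-like markers summed to 415 to 663 against 2650 to 7850. Each gene's own interaction was tested, and none passed.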

How the data were processed

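Niche libraries were made from barcoded, pooled cDNA with UMIs and a Nextera XT preparation, per the labels' protocols. The deposited niche table holds raw UMI counts per Ensembl gene. STAR, featureCounts and the mm10 (GRCm38) genome are named in the submitters' processing notes; for UMI collapsing, annotation release and strand the setting is not given in the sources used here. The 28 spike-in entries were kept out of totals. Symbols and positions (GENCODE M21) matched 17973 of 18194 genes.

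A single model of the 18 niche libraries, with a mean for each of 6 groups, was fitted in edgeR 4.0.16 (R 4.3.3): TMM scaling, filterByExpr over the 6 libraries compared (minimum count 10, minimum total 15), robust quasi-likelihood test, and Benjamini-Hochberg adjustment over the 1275 genes kept. Differences are log2 of EC over MSC. SE is the difference divided by the square root of F. Shares of transcript classes were compared with exact permutation tests, adjusted over 8 classes. Levels are CPM on the TMM-scaled total. Ratios of summed levels carry exact 95% intervals, which cover counting error only. DESeq2 1.42.0 and limma 3.58.1 (voom) served as alternatives, beside other scalings, filters, thinning and leaving out single libraries. The procedure was tested on simulated data.

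Named genes were defining markers, the 15 genes past the test with the smallest p in each direction (0 passed toward EC), and up to 6 tested members per list by smallest p. Serinc1 and the other called genes beyond the first 15 are members of lists or were named after their values were seen, as were list members named for their role. The members and lists were chosen with earlier results of these data known. The row of Wnt5a itself was not analysed here. Results for 1 called gene are not reported here.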

Additional observations from a re-analysis of the deposited data

How the results depend on the processing

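The WT comparison called 22 genes with RLE scaling, with plain totals and with the filter set over all 18 libraries, 33 with no filter (of which 18 and 17, for the last 2, were among the main 23), 20 with the 9 WT libraries alone and 19 with the 6 compared libraries alone or without haemoglobin, mitochondrial and immunoglobulin genes. Thinning to the smallest total gave 10, with fewer genes tested. Leaving out 1 library gave 20 to 28 calls, with 0 to 3 higher in EC. None of the 23 differences changed sign in any alternative that tested it. The Wnt5a comparison gave 14 to 27 calls under other settings and 10 to 24 without 1 library, with 13 lacking MSC Wnt5a replicate 5 and 10 lacking EC Wnt5a replicate 17. The interaction gave 0 calls under every setting tried except 1 call without MSC WT replicate 3, and 0 to 1 over all single-library omissions. The cause of these changes was not tested. Removing the filter moved the median difference of shared genes by 0.28 (log2), and the other settings by at most 0.08. In all, 34 genes outside the 23 were called under some alternative, 11 of them higher in EC. Of these 34, 24 were called under 1 alternative, and Igkc (6), Lrp1 (6) and Abca8a (5) under the most; 13 of the 34 had been tested in the main comparison. They include Hspa1a without EC WT replicate 13, S100a9 (-1.66, edgeR adjusted p = 0.0489), Junb (1.48, 0.0118) and Ubb (1.19, 0.0337) without EC WT replicate 14. No paired analysis was made, because the labels name no pairs and the replicate numbers of the groups are all different. Whether libraries listed in turn came from the same animals is not stated. Depth limits these data: the median 95% interval of a difference reached 0.92 (log2) either way, and genes under about 3 UMIs per library could not be read.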

Other observations

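The EC WT libraries differed among themselves in genes that vessels of different kinds carry. EC WT replicate 15 held 37 UMIs of Stab2, a scavenger receptor of sinusoids, against 4 and 0 in replicates 13 and 14 and 0 in all MSC WT libraries. Plvap, of fenestrated vessels, had 6, 1 and 36 UMIs in EC WT and 2, 1 and 3 in MSC WT, and Vcam1, an adhesion molecule of sinusoids and stroma, 3, 4 and 36 against 2, 2 and 1. The same library was highest in mural genes, with 45 UMIs of Rgs5 against 9 and 8, and 26 of Acta2 against 6 and 2, and it held 219 UMIs of Fos against 33 and 43. These are the values of 1 library and carry no test.

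Without the filter on counts, 4 genes were called higher in EC WT. That setting also moved the median difference of shared genes by 0.28 (log2) toward EC WT. The 4 were Stab2, Sema3g with 15, 5 and 23 UMIs against 0, 0 and 1 (4.03, edgeR adjusted p = 0.0357, and called also without MSC WT replicate 3), Lrg1 with 7, 7 and 41 against 1, 0 and 1 (3.53, edgeR adjusted p = 0.0219), and the mitochondrial transfer RNA mt-Tc with 100, 103 and 87 against 26, 14 and 5 (1.82, edgeR adjusted p = 0.0153). The counts of mt-Tc lay above the floor of 3 UMIs in every library, and it was called also without MSC WT replicate 1. Its EC WT counts were high enough for the filter of the main comparison, which did not call it. Sema3g encodes a semaphorin of arterial endothelium and Lrg1 a glycoprotein that modulates TGF-beta signalling in vessels.

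Of 38 tested nuclear oxidative phosphorylation genes, 34 had positive estimates (median 0.35) and 0 were called (1.8% of all genes tested were), 1 having an unadjusted p under 0.05 by edgeR. Their sums were 11400, 15800 and 9250 CPM in EC WT and 8860 to 10100 in MSC WT, highest in the haemoglobin-rich EC WT replicate 14. All 7 tested members of the mitochondrial genome list had negative estimates (median -0.68). The transfer RNA mt-Tc, which leaned toward EC WT above, is not among these 7. The list was lowest in the same library, with 11900, 6910 and 16000 CPM in EC WT and 13000 to 17600 in MSC WT. The mitochondrial share of UMIs overlapped between the groups (exact permutation p = 0.6). The part of that library in these estimates was not tested. In the Wnt5a libraries 11 of the 38 nuclear genes were positive (median -0.33), and the 7 listed mitochondrial genes were again all negative (median -0.71).

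Haemoglobin genes followed EC WT replicate 14. The estimate for Hbb-bs was -1.44 without that library, and the 8 tested erythroid genes had a median of 0.98 with it. Gm42418, a transcript that overlaps ribosomal RNA, took 2.97% ± 1.18 of the UMIs in EC WT and 5.52% ± 1.35 in MSC WT, without overlap (exact two-sided permutation p = 0.1, the smallest possible, and 0.4 after adjustment over 8 classes).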
